A study of Mus musculus with 9 samples.

Results

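Genes of DNA replication and S phase were followed in crypt epithelium of the mouse intestine. The set holds 44 genes of origin licensing, helicase activation, the replication fork, nucleotide supply, maintenance methylation and the G1/S transition. They were chosen by gene symbol and known function, with earlier results of these data known. All 44 were among the 24930 symbols of the table, and all 44 passed the filter of at least 1 FPKM in at least 3 libraries, as did 12097 genes in all. The values were read as FPKM, a unit inferred from the values themselves. FPKM counts sequenced fragments per kilobase of transcript, scaled to library size, so levels of different genes can be compared per length.

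A cell copies its DNA once per cycle in steps that these genes carry out. Origin recognition subunits, Cdc6 and Cdt1 load the MCM2-7 helicase in G1, Cdc45 and the GINS complex turn it on at S phase entry, and polymerases, the sliding clamp Pcna and its loader copy the strands with nucleotides supplied by enzymes such as ribonucleotide reductase. Many of these genes are targets of E2F transcription factors, and in the intestine they mark the dividing stem and transit-amplifying cells of the crypt.

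Poly(A) RNA was sequenced from control mice and from mice with a gain-of-function allele of β-catenin, encoded by Ctnnb1, induced on 1 gene copy. Each of 3 groups had 1 library at day 8, day 9 and day 10 after induction, which gives 3 control libraries, 3 of mutant set A and 3 of mutant set B. By title, set A carries the heterozygous β-catenin change alone and set B carries it together with heterozygous Cdx2, a homeobox gene of intestinal identity. Library names put the Cdx2 mark on set A instead, so neutral names are used. No source used here gives the Cre driver, the strain or the age of the mice. Nothing in the labels says that libraries came from separate animals, so p-values speak only for the spread among libraries, and days stand in place of replicates within a group.

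Ctnnb1 ran from 187 to 207 FPKM in control and from 211 to 239 in the mutants, a gene-level value that does not show the allele. Cdx2 ran from 108 to 139 FPKM in control, from 126 to 144 in set A and from 178 to 196 in set B, so set A overlapped control and set B lay above it. Judged by the spacing of the lowest values, 1 FPKM stood for 16.8 to 19.0 fragments per transcript kilobase. Set B day 9 stood apart: Xist was at 0.1 FPKM against 27.0 to 39.4 in the other 8 libraries, 4 Y-linked genes summed to 41.7 FPKM against at most 0.047, and Reg3b, an antimicrobial lectin gene, was at 802 FPKM against 1150 to 3803 in control and 15581 to 37914 in the other mutants. For Reg3b this library was thus below control and unlike the other mutants. In Ctnnb1 at 235 FPKM and Cdx2 at 178 FPKM it lay above every control, as the other set B libraries did. Whether it is correctly labelled is not known. The main counts and many single genes are therefore given with and without it. Where no second value is given, the library is included.

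Cdc6 and Mcm5 of origin licensing, Tk1 of nucleotide supply, Uhrf1 and Dnmt1 of maintenance methylation, and E2f1 and Ccne2 of the G1/S transition fell in the mutants. Their mean levels over the 6 mutant libraries ran from 63.0% of the control mean for Ccne2 to 78.4% for Tk1. These 7 of 44 (15.9%) passed limma's test of both mutant sets against control at an adjusted p below 0.05, all as falls, while 0.645% of the 12097 genes tested passed as falls and 0.513% as rises. The fold change was negative for 43 of the 44 (50.3% of the genes tested), Gins4 being the exception, and its median was −0.32 on the log2(FPKM + 1) scale against −0.0017 over all genes tested. All 6 mutant libraries lay below all 3 control libraries for 37 of the 44 genes (84.1%), against 7.37% of the genes tested. In these tissue samples, fewer cells of a type and less RNA per cell cannot be told apart.

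The number of calls rested on single libraries. When the day-9 set B library was left out, 26 of the 44 (59.1%) passed, all as falls, against 3.64% of 12000 genes tested, and the median fold change was −0.33. Calls over all genes, in either direction, went from 140 to 995, so the rise in calls was not particular to these 44. Before adjustment, 38 of the 44 had a p below 0.05 as falls in that fit, by limma. Leaving out the day-8 library of set A left 3 (Uhrf1, E2f1 and Prim1), leaving out the day-8 control left Uhrf1 alone, and leaving out any 1 of the other 6 libraries left 0. With day as a block, 0 of 44 passed by limma, against 0.405% of the genes tested as falls. With libraries rescaled to equal totals, 0 of 44 passed, against 0.297%, although 43 had a negative fold change (41.7% of the genes tested), with a median of −0.28. Before adjustment, 39 of the 44 had a p below 0.05 as falls in the main fit with all 9 libraries, by limma, against 10.8% of the genes tested. That count was 38 with day as a block and 25 with equal totals. Shares of all genes before adjustment are not given here for the other fits.

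**Figure D1:**
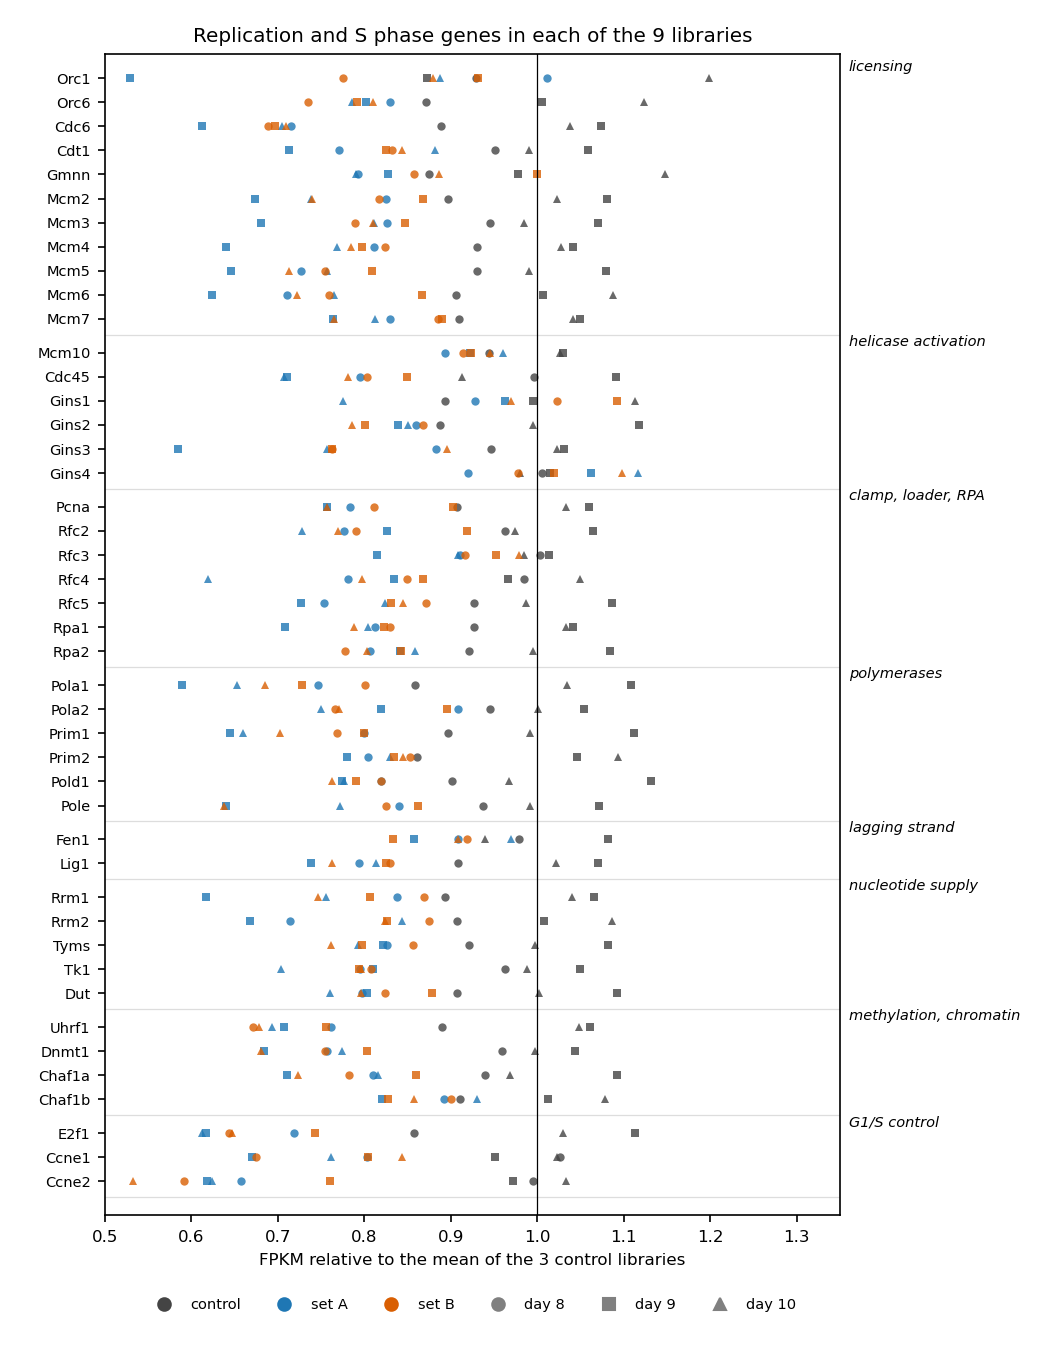
Level of each of the 44 genes (rows, by role) in each of the 9 libraries, as FPKM divided by the mean of the 3 control libraries (x axis). Colours give the group and symbols the day; mutant points lie left of the control points for 37 of the 44 genes, with Orc1, Gmnn, Mcm10, Gins1, Gins4, Fen1 and Chaf1b as the exceptions.

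Upstream sequences were read for 35 of the 44 genes from RefSeq (build GRCm38.p6), as the 250 bases before each annotated start. An E2F-type motif, searched as TTTGGCGC, TTTCCCGC, TTTGCCGC or TTTCGCGC on both strands, was present for 10 of the 35 (28.6%). The same letters were present for 3.99% of the 9454 tested genes with a window and for 2.16% of all 27025 genes with one. Median GC content was 60.4% for the windows of the 35 genes and 59.6% for those of the tested genes. The CCAAT box was present for 60.0% of the 35 and 40.9% of the tested genes. The CHR motif TTTGAA was present for 14.3% and 12.9%, and the palindromic NRF1 motif for 0 of the 35 and 1.91% of the tested genes. Of the called genes, Cdc6, Mcm5, Uhrf1 and Dnmt1 held an E2F-type motif, the windows of E2f1 and Tk1 held none of these letters, and Ccne2 had no window. The 5 stretches below are those whose bases overlap no annotated exon, shown because they hold the motifs of Cdc6, Mcm5 and Uhrf1 and 2 further genes. Capitals mark the motif, with 15 bases on either side, and in Mcm5 and Mcm6 motifs on opposite strands overlap.

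Cdc6, chr11:98907998-98908035, plus strand: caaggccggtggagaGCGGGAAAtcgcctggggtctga
Mcm5, chr8:75109341-75109382, plus strand: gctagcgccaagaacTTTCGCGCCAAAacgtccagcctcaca
Mcm6, chr1:128359730-128359830, minus strand: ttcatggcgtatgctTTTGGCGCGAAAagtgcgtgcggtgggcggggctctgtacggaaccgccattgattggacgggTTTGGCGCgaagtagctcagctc
Pola1, chrX:93632271-93632308, minus strand: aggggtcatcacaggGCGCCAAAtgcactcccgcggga
Uhrf1, chr17:56304113-56304150, plus strand: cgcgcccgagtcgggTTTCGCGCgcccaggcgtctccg

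The Mcm6 stretch holds 3 matches between 110 and 47 bases before the start, and the Mcm5 stretch holds 2 matches, at 153 and 149 bases before it. Cdc6 and Pola1 each hold 1 match, at 138 bases before the start. The Uhrf1 match lies 185 bases before the later of its annotated starts. A match is a description of letters and not of a bound site.

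Among the 11 licensing genes, Cdc6 and Mcm5 fell and all 11 fold changes were negative, with a median of −0.32. Cdc6, the ATPase that recruits Cdt1 and the MCM helicase to origins, was at 5.00, 6.04 and 5.84 FPKM at days 8, 9 and 10 in control. Set A libraries held 4.03, 3.45 and 3.97 FPKM and set B libraries 3.87, 3.92 and 3.99. All 6 mutant libraries were below every control, with set A at day 9 the lowest. The difference was −0.44 (standard error 0.08, adjusted p = 0.0418, limma) with all libraries and −0.44 (adjusted p = 0.0248) with set B day 9 left out.

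Mcm5, a subunit of the ring-shaped MCM2-7 helicase, was at 38.0, 44.1 and 40.4 FPKM in control. Set A libraries held 29.7, 26.4 and 30.9 FPKM and set B libraries 30.8, 33.0 and 29.1. The groups did not overlap, and the highest mutant library was set B at day 9. Mcm5 fell by 0.43 on the log2 scale (standard error 0.08, adjusted p = 0.0426, limma), and by 0.46 (adjusted p = 0.0183) without that library.

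All 6 subunits of the MCM2-7 ring had lower means in the mutants, and Mcm5 alone passed with all libraries. Mcm7 was the highest and Mcm4 the lowest of the 6 in each of the 9 libraries, and their ratio ran from 2.51 to 2.60 in control and from 2.50 to 3.07 in the mutants. Mcm7 was at 64.7, 74.8 and 74.2 FPKM in the 3 controls, 59.1, 54.4 and 57.9 in those of set A and 63.1, 63.4 and 54.5 in those of set B. The lowest control of Mcm7 was thus just above the highest mutant, and its difference of −0.27 (standard error 0.08) did not pass (adjusted p = 0.105, limma). Mcm6 gave −0.43 (adjusted p = 0.0688), and Mcm2, Mcm3 and Mcm4 gave −0.32 to −0.36. Summed over the 6 subunits, levels were 253, 290.1 and 285 FPKM in the 3 controls, 217, 188 and 215 in those of set A and 224, 236 and 208 in those of set B, with no overlap. With set B day 9 left out, Mcm2, Mcm3, Mcm4 and Mcm6 also passed as falls, and Mcm7 did not (adjusted p = 0.0600, limma).

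Cdt1, the helicase loader, was at 37.9 to 42.2 FPKM in control and at 28.4 to 35.2 in the mutants, and its inhibitor Gmnn was at 21.7 to 28.5 and 19.6 to 24.8 FPKM, where groups overlapped. The ratio of Cdt1 to Gmnn ran from 1.39 to 1.75 in control and from 1.33 to 1.79 in the mutants, so the ratio of loader to inhibitor overlapped. Orc6, an origin recognition subunit, ran from 12.2 to 15.8 FPKM in control and from 10.3 to 11.7 in the mutants (−0.31, adjusted p = 0.0861, limma). Orc1, the largest subunit of that complex, was the lowest licensing gene at 1.60 to 3.61 FPKM over all libraries, and its groups overlapped (−0.20, standard error 0.15, adjusted p = 0.490, limma).

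The 6 genes of helicase activation had the smallest median difference of the 8 role groups, −0.17, and 0 of 6 passed. By limma, 3 of the 6 had an unadjusted p below 0.05, all as falls. Cdc45, which joins MCM2-7 and GINS in the active helicase, had the largest difference of the group. It was at 13.9, 15.3 and 12.8 FPKM in the 3 controls, 11.1, 9.94 and 9.89 in those of set A and 11.2, 11.9 and 10.9 in those of set B. The groups did not overlap, and the difference of −0.34 (standard error 0.07) had an adjusted p of 0.0602 by limma, which became 0.0301 with set B day 9 left out.

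The 4 GINS subunits form a single complex within the active helicase. None passed, and differences between the subunits were not tested. Gins2 had the highest level, at 20.7, 26.1 and 23.2 FPKM in the 3 controls, 20.1, 19.6 and 19.9 in those of set A and 20.3, 18.7 and 18.4 in those of set B. Its mutant libraries all lay below control, by a small margin (−0.25, standard error 0.07, adjusted p = 0.122, limma). Gins3 was at 2.68 to 2.92 FPKM in control and 1.66 to 2.54 in the mutants, also with no overlap. Gins1 was at 8.60 to 10.7 FPKM in control and 7.46 to 10.5 in the mutants, and its small difference of −0.06 changed sign under other settings. Gins4 was at 16.7, 16.9 and 16.3 FPKM in the 3 controls, 15.3, 17.7 and 18.6 in those of set A and 16.3, 17.0 and 18.3 in those of set B. It was the only member with a higher mean in the mutants, by 0.04 (standard error 0.07, adjusted p = 0.776, limma), and the sign turned without the day-10 libraries. The summed GINS level was 48.8 to 55.5 FPKM in control and 46.8 to 48.6 in the mutants. Gins2 shares 2758 exon bases with Gse1 on the opposite strand in the reference annotation, and Gse1 differed by −0.0049, so a part of its fragments could belong to either gene. Mcm10, which helps to activate the loaded helicase, averaged 16.8 ± 0.814 FPKM (SD, n = 3) in control and 15.5 ± 0.391 (SD, n = 6) in the mutants.

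The clamp, its loader and the single-strand binding protein gave −0.33 for Pcna to −0.13 for Rfc3, with a median of −0.31, and in all 7 genes the groups did not overlap. None of the 7 passed with all 9 libraries by limma (7 of 7 had an unadjusted p below 0.05), and 5 of 7 passed as falls with set B day 9 left out. Pcna, the sliding clamp that holds polymerases on DNA, had the highest level of the 44 genes. It was at 145, 169.6 and 165 FPKM in the 3 controls, 125, 121 and 121 in those of set A and 129.7, 144 and 121 in those of set B. The day-9 library of set B came within 1 FPKM of the lowest control. The difference was −0.33 (standard error 0.08, adjusted p = 0.0786, limma) with it and −0.36 (adjusted p = 0.0263) without it. The clamp loader subunits Rfc2, Rfc4 and Rfc5 gave −0.30 to −0.32, and Rfc3, a further subunit of the same loader, gave −0.13 (standard error 0.05). The subunits Rpa1 and Rpa2 of the single-strand binding protein gave −0.32 and −0.27.

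The polymerase genes comprise the primase and polymerase alpha subunits, which start each strand, and the catalytic subunits of polymerases delta and epsilon, which extend them. All 6 had groups that did not overlap and a median of −0.33, with 0 of 6 past the test with all libraries (6 of 6 with an unadjusted p below 0.05, limma) and 4 of 6 as falls with set B day 9 left out. Prim1, the catalytic primase subunit, had the largest difference. It was at 20.6, 25.6 and 22.8 FPKM in the 3 controls, 18.4, 14.8 and 15.2 in those of set A and 17.7, 18.4 and 16.2 in those of set B. Day 9 held both the highest control and the lowest mutant, and the difference was −0.43 (standard error 0.09, adjusted p = 0.0649, limma). Pola1, the catalytic subunit of polymerase alpha, gave −0.43 from a level of 5.37 to 6.93 FPKM in control to 3.68 to 5.00 in the mutants. Pold1, the catalytic subunit of polymerase delta and the highest of the group, was at 24.3, 30.5 and 26.1 FPKM in control. Set A libraries held 22.1, 20.9 and 20.9 FPKM and set B libraries 22.1, 21.3 and 20.6, a span narrower than that of the controls. Its difference was −0.32 (standard error 0.07, adjusted p = 0.0747, limma). Pola2, Prim2 and Pole gave −0.25 to −0.35.

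The nuclease Fen1 and the ligase Lig1 finish the lagging strand by trimming and joining Okazaki fragments. Lig1 was at 32.2, 38.0 and 36.3 FPKM in the 3 controls, 28.2, 26.2 and 28.8 in those of set A and 29.4, 29.3 and 27.1 in those of set B. Its groups did not overlap (−0.32, standard error 0.07, adjusted p = 0.0645, limma). Fen1 was at 34.4, 38.0 and 33.0 FPKM in the 3 controls, 31.9, 30.1 and 34.0 in those of set A and 32.2, 29.3 and 31.9 in those of set B. The day-10 library of set A was above the lowest control, and Fen1 gave −0.15 (standard error 0.07, adjusted p = 0.254, limma).

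**Figure D2:**
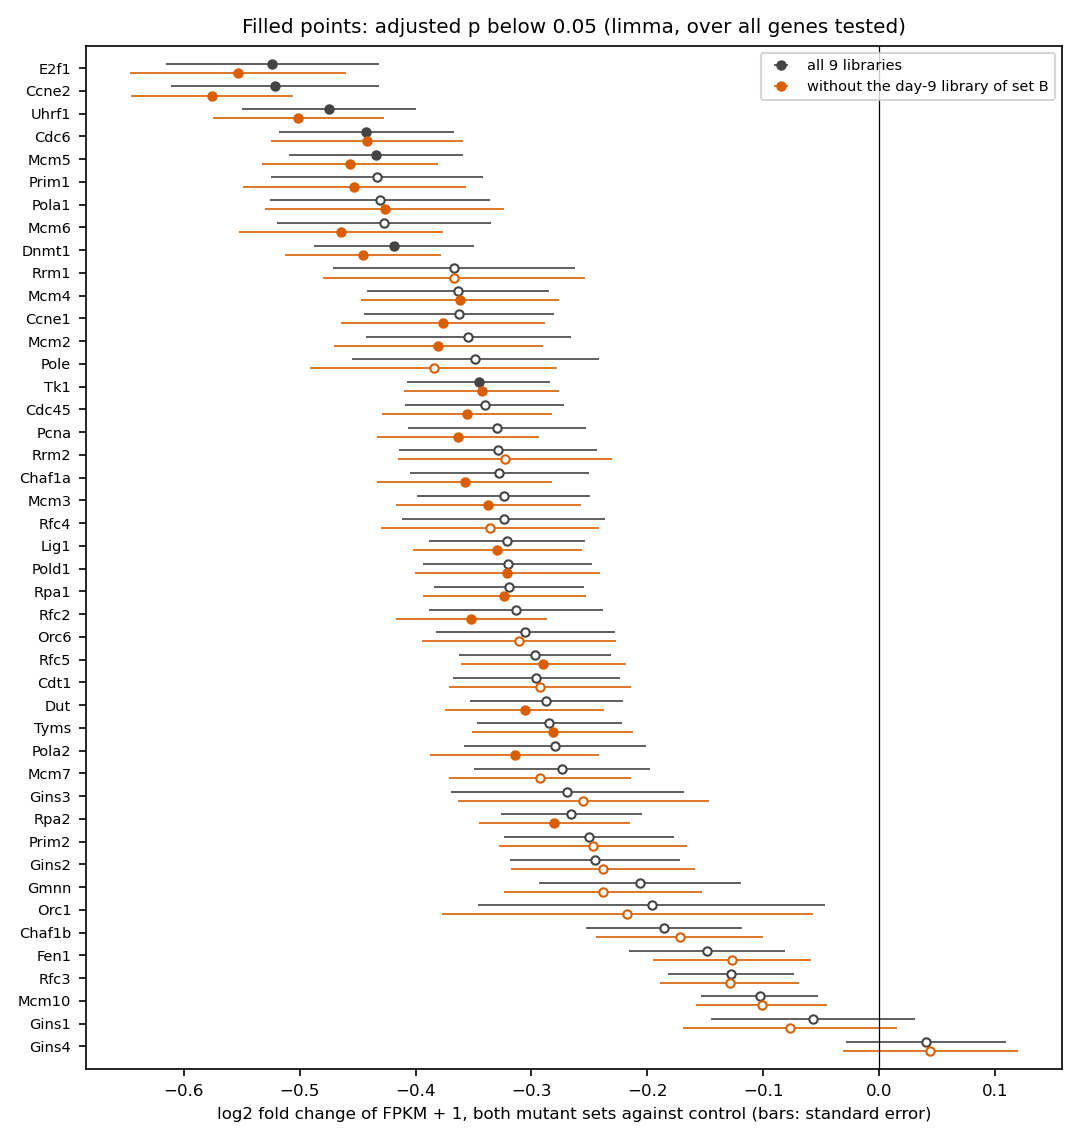
Log2 fold change of FPKM + 1 in both mutant sets against control for each of the 44 genes (x axis; bars are standard errors), with all 9 libraries and with set B day 9 left out. Filled points mark an adjusted p below 0.05: 7 genes with all libraries and 26 without that library, with nearly the same fold changes in both.

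Of the nucleotide supply genes, Tk1 fell and the other 4 were lower without passing. Tk1, the S phase thymidine kinase, was at 69.6, 75.9 and 71.5 FPKM in the 3 controls, 57.5, 58.6 and 50.9 in those of set A and 58.4, 57.4 and 57.6 in those of set B. The 6 mutant libraries were well separated from control (−0.35, standard error 0.06, adjusted p = 0.0456, limma; 0.0272 when set B day 9 was left out). Rrm1, the large subunit of ribonucleotide reductase, was at 33.9, 40.5 and 39.5 FPKM in the 3 controls, 31.8, 23.4 and 28.7 in those of set A and 33.0, 30.6 and 28.3 in those of set B. It had the largest difference of the group and the widest spread (−0.37, standard error 0.10, adjusted p = 0.110, limma). The small subunit Rrm2 gave −0.33 with the ratio of Rrm1 to Rrm2 at 1.08 to 1.19 in control and 1.01 to 1.32 in the mutants. Tyms, which makes dTMP, and Dut, which removes dUTP, gave −0.28 and −0.29.

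Uhrf1 and Dnmt1 fell together. Uhrf1 binds hemimethylated DNA behind the fork and brings in Dnmt1, which copies CpG methylation to the new strand. Uhrf1 was at 34.2, 40.8 and 40.3 FPKM in the 3 controls, 29.3, 27.2 and 26.6 in those of set A and 25.8, 29.1 and 26.1 in those of set B. It had the smallest p of the 44 genes, with a difference of −0.47 (standard error 0.07, adjusted p = 0.0320, limma), or −0.50 (adjusted p = 0.0135) with set B day 9 left out. Of the 9 fits that each left out 1 library, 3 kept its call. Dnmt1 was at 34.1, 37.2 and 35.5 FPKM in the 3 controls, 26.9, 24.3 and 27.6 in those of set A and 26.8, 28.6 and 24.2 in those of set B. Its groups were apart by more than 5 FPKM (−0.42, standard error 0.07, adjusted p = 0.0399, limma, and 0.0142 when set B day 9 was left out). The subunits of the chromatin assembly factor that loads histones onto new DNA were lower by less, Chaf1a by −0.33 (adjusted p = 0.0785) and Chaf1b by −0.19 (adjusted p = 0.172), by limma. Chaf1a shares 2542 exon bases with Ubxn6 on the opposite strand, which differed by 0.17.

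The G1/S genes showed the largest differences of the role groups, with a median of −0.52. E2f1, an activating E2F factor, was at 8.64, 11.2 and 10.4 FPKM in the 3 controls, 7.25, 6.22 and 6.16 in those of set A and 6.48, 7.48 and 6.52 in those of set B. It fell by 0.52 (standard error 0.09, adjusted p = 0.0442, limma), with the day-8 control nearest to the mutants. The G1/S cyclins Ccne1 and Ccne2 activate Cdk2. Ccne2 was at 4.38, 4.28 and 4.55 FPKM in the 3 controls, 2.89, 2.72 and 2.75 in those of set A and 2.60, 3.35 and 2.34 in those of set B. It fell by 0.52 (standard error 0.09, adjusted p = 0.0426, limma), and by 0.58 (adjusted p = 0.00841) once set B at day 9, its highest mutant library, was left out. Ccne2 shares 474 exon bases with Ints8 on the opposite strand, which differed by −0.18 (adjusted p = 0.161, limma). Ccne1 was at 11.1, 10.3 and 11.1 FPKM in the 3 controls, 8.73, 7.27 and 8.27 in those of set A and 7.33, 8.74 and 9.16 in those of set B, also without overlap (−0.36, standard error 0.08, adjusted p = 0.0733, limma). With set B day 9 left out, all 3 G1/S genes passed as falls by limma. The ratio of Ccne1 to Ccne2 was 2.41 to 2.54 in control and 2.61 to 3.91 in the mutants, a description chosen after the values were seen.

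The sets were then compared with control separately and with each other. They share the 3 control libraries. Against control, 0 of 44 genes passed in set A and 0 of 44 in set B by limma, against 0.0909% and 0.240% of the genes tested as falls; before adjustment 38 and 36 of the 44 had a p below 0.05 as falls, against 8.89% and 8.42%. The median difference was −0.35 in set A and −0.29 in set B. Mutant libraries lay below all controls for 38 genes in set A and 39 in set B, against 13.0% and 12.5% of the genes tested. With set B day 9 left out, Ccne2, Dnmt1 and Mcm5 passed as falls in set A, against 0.392% of the genes tested. The same fit, with 2 libraries in set B, called these 3 with E2f1 and Uhrf1 as falls in set B, against 1.43%.

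Set B minus set A was tested directly, and 0 of 44 genes passed by limma (0% of the genes tested), with 0 below an unadjusted p of 0.05 (1.65% of the genes tested as rises and 1.45% as falls). The fold change was above 0 for 35 of 44, against 52.0% of the genes tested, with a median of 0.07. With set B day 9 left out, 0 of 44 passed by limma and 32 of 44 were above 0. The share of all genes above 0 is not given here for that fit. The 3 libraries of set B lay above the 3 of set A for Gmnn, Gins1, Rfc3, Rfc5 and Prim2, which is 5 of 44 (11.4%) against 3.18% of the genes tested. Of these, Gins1 had the largest fold change, with 8.93, 9.27 and 7.46 FPKM for set A against 9.85, 10.5 and 9.34 for set B (0.19, standard error 0.10, adjusted p = 0.9999, limma). Rescaling to equal totals raised the share of lower genes in this comparison from 48.0% to 64.7% of all genes tested and left 27 of the 44 above 0, so its signs depend on the scaling.

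Day by day, mutant levels were below the control of the same day for 40 to 43 of the 44 genes, against 48.6% to 53.4% of the genes tested. At day 8 the median log2 difference in level was −0.18 for set A and −0.16 for set B. At day 9 it was −0.51 and −0.32, and at day 10 it was −0.36 in both sets. The controls contributed to this order, since the day-8 control was the lowest control for 36 of 44 genes and the day-9 control the highest for 33. Among the mutants, set A at day 9 was the lowest library for 23 genes and set B at day 9 the highest for 17. Shares of all genes tested were not counted for these orders among libraries. In a model with a slope over days, 0 of 44 genes passed for the overall slope and 0 of 44 for the mutant slope minus the control slope, by limma, as did 0% of the 12097 genes tested for either slope. That difference was below 0 for 38 of 44 (48.6% of the genes tested), with a median of −0.10 per day. Gins1 alone of the 44 had an unadjusted p below 0.05, against 1.82% of the genes tested as falls (−0.22 per day, standard error 0.09, adjusted p = 0.818, limma). With 1 library per group and day, a change over days and a difference between libraries cannot be told apart.

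**Figure D3:**
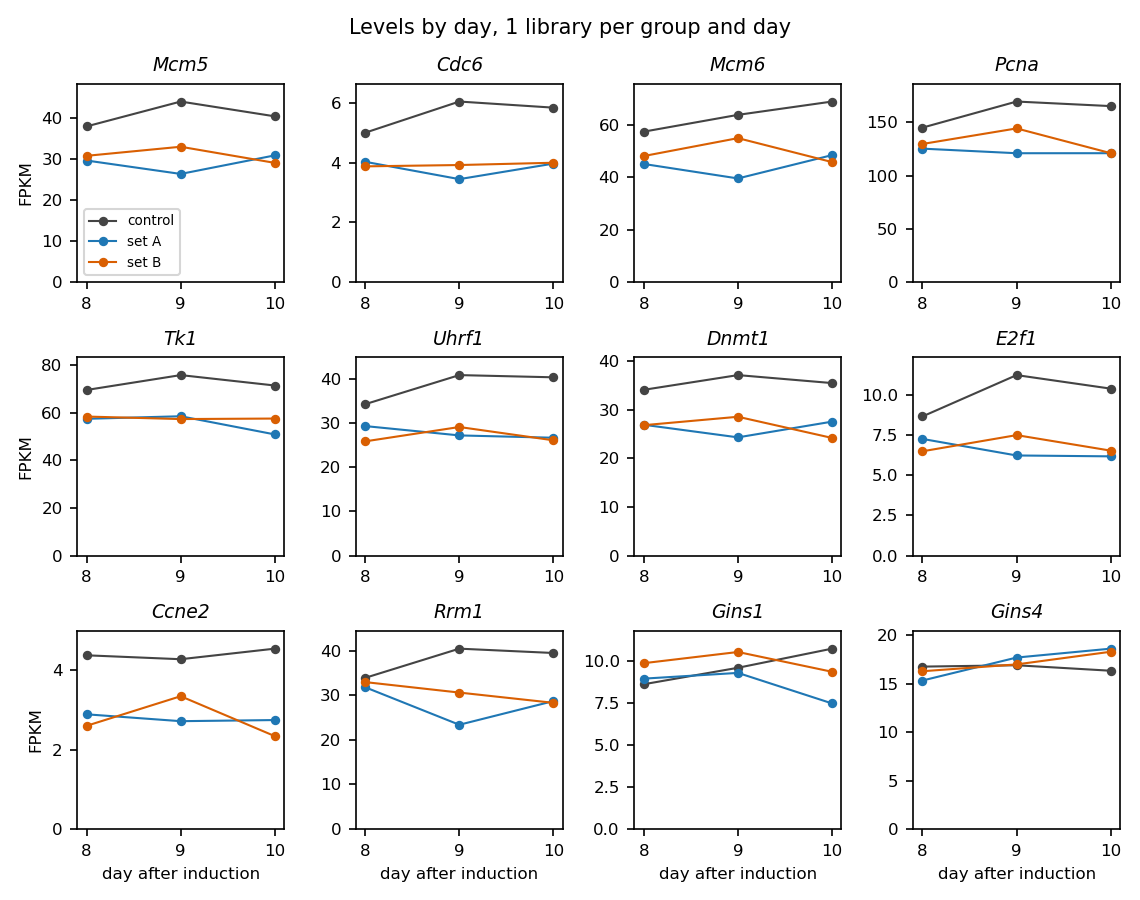
FPKM (y axis, from 0) by day after induction (x axis) for 12 of the genes, 1 library per point, with lines joining the libraries of a group. Mcm5, Cdc6, Mcm6, Pcna, Tk1, Uhrf1, Dnmt1, E2f1, Ccne2 and Rrm1 lie below control on each day, while Gins1 and Gins4 cross it.

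Other genes of replication were read from lists of the same pathways. Of 24 other fork genes, Dna2 and Timeless fell and the median was −0.22. Dna2, a nuclease and helicase that trims flaps, was at 7.62, 9.05 and 9.85 FPKM in control and at 5.83 to 6.56 in the mutants (−0.46, standard error 0.08, adjusted p = 0.0452, limma). Timeless, of the fork protection complex, was at 5.92 to 5.99 FPKM in control and 4.42 to 5.07 in the mutants (−0.31, adjusted p = 0.0498, limma). Pold2, an accessory polymerase delta subunit, ran from 72.0 to 84.4 FPKM in control and from 61.9 to 70.6 in the mutants (−0.24, adjusted p = 0.129, limma).

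Of 18 other licensing genes, which include the remaining origin subunits and the loading and destruction factors, 0 passed by limma and 7 had an unadjusted p below 0.05, all as falls, with a median of −0.11. Cdk2, the partner of the E cyclins, gave −0.23 (adjusted p = 0.108, limma). Of 20 other nucleotide genes, 0 passed by limma (8 had an unadjusted p below 0.05 as falls and 1 as a rise), with a median of −0.14. Of 14 other methylation and chromatin genes tested, Hells, a remodeller needed for DNA methylation, fell from 14.5 to 18.1 FPKM in control to 9.83 to 13.4 (−0.52, standard error 0.10, adjusted p = 0.0495, limma). Of 20 repair genes that act at forks, 2 passed as falls, among them Ung, the uracil glycosylase, which fell by 0.42 (adjusted p = 0.0439, limma). Over these 5 lists, 84 of 96 genes had a negative fold change with a median of −0.18. Of all genes tested, 50.3% had a negative fold change and 10.8% an unadjusted p below 0.05 as falls, by limma.

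Among 25 E2F, RB and CDK genes tested, E2f8 and Cdkn2c fell. E2f8, a repressing E2F factor, was at 25.6 to 30.0 FPKM in control and 17.8 to 23.1 in the mutants (−0.48, standard error 0.09, adjusted p = 0.0448, limma). Cdkn2c, an inhibitor of Cdk4 and Cdk6, was at 16.8 to 17.2 FPKM in control and 9.26 to 12.7 in the mutants (−0.61, standard error 0.10, adjusted p = 0.0417, limma). Myc gave 0.07 (adjusted p = 0.641), and Ccnd2, a D cyclin, gave −1.41 (adjusted p = 0.0874), or −1.67 (adjusted p = 0.00266) with set B day 9 left out, by limma. The spindle checkpoint kinase gene Ttk fell among 24 G2/M genes (−0.54, adjusted p = 0.0167, limma). All 24 had a negative fold change (50.3% of the genes tested), with a median of −0.23.

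**Figure D4:**
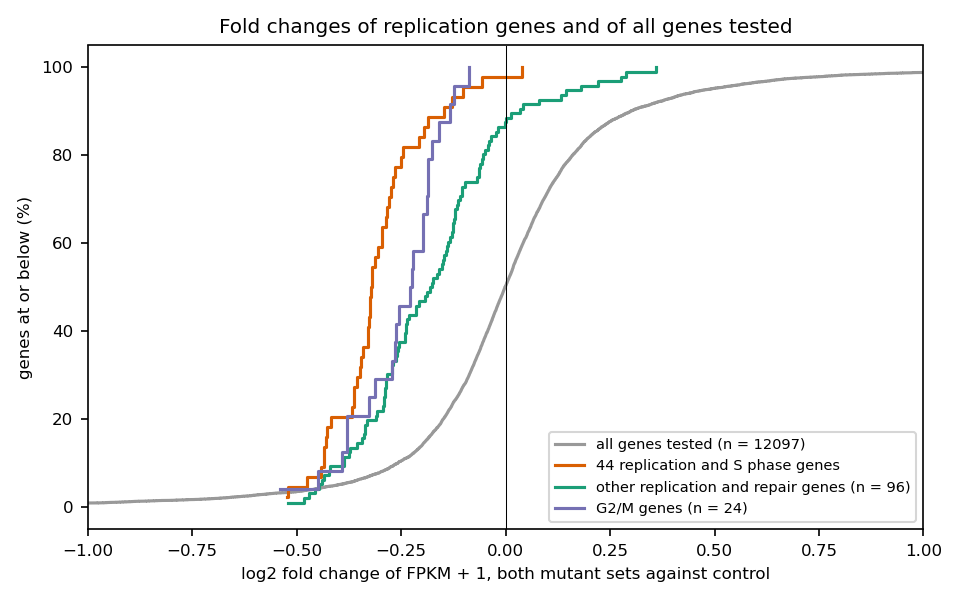
Cumulative share of genes (y axis, percent) at or below a log2 fold change of FPKM + 1 in both mutant sets against control (x axis, drawn from −1 to 1) for the 44 genes, for 96 other replication and repair genes, for 24 G2/M genes and for the 12097 genes tested. The medians are −0.32, −0.18, −0.23 and −0.0017.

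Summed levels of several marker lists moved with the same groups or with single libraries. Epithelial markers, 8 genes, summed to 5355 to 5903 FPKM in control and 5305 to 6056 in the mutants, and 0 of 8 passed by limma (1 with an unadjusted p below 0.05, as a rise). Of 8 markers of the Paneth cell, a non-dividing antimicrobial cell of the crypt base, Lyz1, Ang4, Defa24 and Defa30 fell, and the sum was 55199 to 92445 FPKM in control and 15157 to 35699 in the mutants, with 0 of 8 at 0. These 4 of 8 passed by limma, against 0.645% of the genes tested as falls. The fold change was negative for 7 of the 8 and positive for 1, at 0.088. Of 5 markers of crypt base stem cells, 0 passed by limma (1 with an unadjusted p below 0.05, as a rise). Their sum was 1096 to 1268 FPKM in control and 683 to 1416 in the mutants, the highest being the day-9 library of set B. Among 7 dissociation stress genes tested, Junb and Ier3 rose, and the sum of 8 was 149 to 165 FPKM in control and 205 to 238 in the mutants. Enterocyte markers, 8 genes, summed to 3449 to 7340 FPKM in control and 2637 to 8208 in the mutants, the highest value being the day-9 library of set B. By limma, 0 of these 8 passed (1 with an unadjusted p below 0.05, as a fall). T cell markers, 8 genes, summed to 45.1 to 77.5 FPKM in control and 17.7 to 64.1 in the mutants, and fibroblast markers, 6 genes, to 0.018 to 0.117 and 0.242 to 6.64, with 2 to 4 of the 6 at 0 in each control. Red blood cell markers, 3 globin genes, summed to 3.89 to 6.38 FPKM in control and 1.54 to 38.0 in the mutants, with the day-8 and day-9 libraries of set A highest at 38.0 and 22.6. Macrophage markers, 6 genes, summed to 4.62 to 4.91 FPKM in control and 3.96 to 13.8 in the mutants, with up to 1 of 6 at 0 in a library. Tuft cell markers, 5 genes, summed to 22.2 to 44.2 FPKM in control and 8.18 to 34.2 in the mutants. All 5 fold changes were negative (50.3% of the genes tested) with a median of −0.78, and 0 of 5 passed by limma (0 with an unadjusted p below 0.05). Goblet markers, 6 genes, summed to 6600 to 9154 FPKM in control and 6181 to 9049 in the mutants, and enteroendocrine markers, 6 genes, to 258 to 283 and 206 to 408. By limma, 0 of 6 passed in either list. Before adjustment, 1 goblet marker had a p below 0.05 as a fall, and 2 enteroendocrine markers did as falls and 1 as a rise. In set A alone, 1 enteroendocrine marker passed as a fall, against 0.0909% of the genes tested. B and plasma cell markers, 5 genes, summed to 2.71 to 5.20 FPKM in control and 3.16 to 4.66 in the mutants, smooth muscle markers, 4 genes, to 3.60 to 4.61 and 3.59 to 6.31, and endothelial markers, 4 genes, to 0.231 to 0.353 and 0.283 to 0.669. The part of these markers in the replication gene result was not tested.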

How the data were processed

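The deposited table held 1 value per gene symbol and library. The deposited values were read as FPKM; no source used here names the unit, which was inferred: values are not whole, their lowest steps shrink as transcripts lengthen, and size-factor scaling is visible (median of gene ratios to their geometric means 1.00276 for each library, 15138 genes). Per the submitters' processing notes, kallisto 0.46.1, DESeq2 1.40.1 and genome build mm9 were used, with no role given. The reference used here was GRCm38 (GENCODE M21), so coordinates are given for RefSeq upstream windows only.

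Differences were fitted with limma 3.58.1 (R 4.3.3) on log2(FPKM + 1) for genes reaching 1 FPKM in 3 or more libraries, as group means with a moderated spread (trend and robust options), and adjusted over all 12097 genes tested (Benjamini-Hochberg, threshold 0.05). The pseudocount understates changes of low genes. The fit was checked on simulated data with independent noise at the model's own spread. That simulation held no library that stood apart and no same-day correlation, so it does not cover those features of these data. Group values combine days, so their spread holds any change over days. Day as a block, libraries left out, other scalings, filters and pseudocounts were alternatives. Genes shown in every library were the 3 marker genes Mcm5, Cdc6 and Uhrf1, those that passed, and those of highest level and largest difference in each role; up to 4 genes per other list were named, first those that passed and then those of highest level. Gins1, Gins4, Gmnn, Orc1, Cdk2, Myc, Ccnd2 and the strand partners were also named after their values were seen. One gene that passed in another list is not reported here. The members and lists were chosen with earlier results of these data known.

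Near copies were searched with blastn 2.17.0 in the reference transcripts. Pcna, Mcm7, Uhrf1, Rfc5, Cdc6 and Rrm2 have a copy of at least 95% identity over at least 400 bases that is not a row of the table, and 12 members share at least 50 exon bases with a gene on the opposite strand. How fragments were divided there is not given in the sources used here.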

Additional observations from a re-analysis of the deposited data

Results flagged for a closer look

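In 7 of the 44 genes, 1 of the 6 mutant libraries stood apart from the other 5 by the gap-to-range criterion used for small groups. The share of all genes tested that would be flagged was not counted. Chance flags about 1 in 20 groups of independent values, a rate that cannot be set against this count. These 6 libraries mix sets and days, and set A at day 9 was the lowest of them for 23 of the 44 genes. The day-9 library of set A was the low one for Cdc6 (3.45 FPKM), Mcm3 (23.8 FPKM), Mcm4 (17.8 FPKM) and Rpa1 (19.4 FPKM). The day-10 library of set A was the low one for Rfc4 (10.7 FPKM) and Tk1 (50.9 FPKM). The day-9 library of set B was the high one for Pcna (144 FPKM).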

How the results depend on the processing

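Of the 44 genes, the number past the test of both sets against control was 7 with all libraries, 34 with library weights (a fit whose weights stopped before convergence), 1 with no filter, and 0 with equal totals, with day as a block, and without day 8, day 9 or day 10; it ran from 0 to 26 when single libraries were left out. For set A it was 0, and 1 with library weights and up to 3 without a library; for set B it was 0, and 30 with library weights and up to 5. Over all genes, the count for both sets was 140, and it was 80 with no filter, 1438 with library weights, 1 without day 8, 7 without day 10 and 17 to 995 without a library. For set A it was 26, and 44 with library weights, 16 with the day block, 1 without day 8, 5 without day 10 and 3 to 126 without a library. For set B it was 76, and 2035 with library weights, 48 with the compared groups alone, 3 without day 8, 8 without day 10 and 18 to 483 without a library. For set B minus set A it was 0, and 2 with a pseudocount of 0.1, 3 with library weights, 2 without day 8 and up to 2 without a library. For the slope difference it was 0, and 86 with library weights, 1 without day 8, 181 without day 9 and up to 2 without a library. In the 3 comparisons with control, fold changes of the 44 genes reversed only for Gins1, Gins4 and Gmnn. Not all of these were near 0 with all libraries, as Gmnn in set B was at −0.12. With equal totals, more signs changed elsewhere: 27 rather than 35 of the 44 were above 0 in set B minus set A, and 4 rather than 26 for the slope over days. For both sets against control, Gins1 became 0.076 and Gins4 −0.023 without day 10, and Gins1 turned without the day-10 control. For set A, Gins1 became 0.0035 and Gins4 −0.029 without day 10, and Gins4 turned without its day-10 library. For set B, Gins1 became −0.029 without day 8 and −0.00163 without day 9, Gins4 became −0.016 without day 10 and turned without its day-10 library, and Gmnn became 0.0010 without day 10; Gins1 in set B also turned without the day-8 control or its own day-9 library. With single libraries left out, these ranged from −0.128 to 0.0151 for Gins1 in both sets, −0.0158 to 0.116 for Gins4 in set A, −0.0314 to 0.112 for Gins1 in set B and −0.00256 to 0.0768 for Gins4 in set B. The causes were not tested. Same-day libraries of different groups deviated together by r from −0.24 to 0.62 across genes, not above 0.1 in every pair. Set A with set B gave −0.018, 0.40 and 0.62 at days 8, 9 and 10, and pairs with control gave −0.24 to 0.07. Mutant libraries pooled in the main test may thus not be independent. The block is kept as a check, and a call lost under it is not read as a weaker effect. Calls at adjusted p near 0.04 in 9 libraries turn on 1 library. Low genes rest on few fragments, the called genes Ccne2 and Cdc6 as well as Orc1 and Gins3. Fold changes with the pseudocount understate those of such low genes.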
